A study of Mus musculus with 12 samples.

Results

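The summits of m1A peaks that lay close to an end of a protein-coding gene in the mouse caudate putamen are described here. A summit is the base of highest pull-down signal within a peak. Members were peaks on chromosomes 1 to 19 whose summit lay inside the RefSeq GRCm38.p6 span of a protein-coding gene of at least 10000 and under 500000 bp and within 1000 bp of either end of that span. Of 23413 peaks in 6 lists, 15514 had their summit in a gene span of that size, and 4596 of these were end summits while the other 10918 were interior summits. Merging end peaks that shared at least 1 bp gave 2119 end regions, of 13572 regions obtained by merging all peaks, or 13137 on chromosomes 1 to 19. The regions had a median length of 219 bp (163 to 1442 bp), 30 of them touched more than 1 gene, and they lay in 1912 of the 13107 genes that met the span limits.

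All animals were adult male Tet1 fl/fl mice, in which both Tet1 alleles carry loxP sites, and all received a virus into the caudate putamen, the main input nucleus of the basal ganglia. Controls, labelled Tet1 fl/fl, received AAV-EGFP, and knockouts (KO), labelled Tet1 delta/delta, received AAV-Cre-EGFP, so that recombination was limited to transduced cells of the injected area; the promoter that drives Cre is not given in the sources used here. Tissue was taken 2 weeks later. RNA was heated at 94 °C for 4 min to fragment it, 90% was pulled down with an m1A antibody, and the rest served as input. Each genotype had 3 pull-downs with 3 inputs, and each peak list set 1 pull-down against its own input. The labels do not say that libraries came from separate animals, so each p-value covers the spread among these libraries alone, and that spread may be technical. Fewer cells of a type and less RNA per cell cannot be told apart in bulk tissue.

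N1-methyladenosine (m1A) adds a methyl group to the Watson-Crick face of adenine and is abundant in tRNA and rRNA, where the T-loop of tRNA is its best-known site. Antibody maps of messenger RNA have placed m1A signal mostly toward the 5′ end of transcripts, near the start codon and the first splice site. Base-resolution maps found few sites in nuclear-encoded messenger RNA, and binding of an m1A antibody to the RNA cap has been described. Whether the cap contributed here was not tested. TET1 is a dioxygenase known for oxidising 5-methylcytosine in DNA, and the series was designed to locate transcripts on which it affects m1A.

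Sequences at 6 gene starts with a peak in all 6 lists are printed below. Strand and start sites came from the RefSeq promoter windows (GRCm38.p6), which matched 10380 of the 13107 genes (79.2%). The 6 genes below had the highest minimum fold enrichment among start regions called in all 6 lists, counting only genes with a known strand. Each line gives 90 bases upstream of the listed start in lower case and the first 30 transcribed bases in capitals, 5′ to 3′ on the gene's strand.
Ctbp1, chr5:33274975-33275094, minus strand: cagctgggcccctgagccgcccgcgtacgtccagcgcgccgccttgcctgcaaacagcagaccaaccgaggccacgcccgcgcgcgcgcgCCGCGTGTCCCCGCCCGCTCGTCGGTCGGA
Adam10, chr9:70678892-70679011, plus strand: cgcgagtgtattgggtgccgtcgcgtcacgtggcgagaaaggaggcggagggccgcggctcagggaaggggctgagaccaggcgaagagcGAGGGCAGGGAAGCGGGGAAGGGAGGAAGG
Pgrmc2, chr3:41083017-41083136, minus strand: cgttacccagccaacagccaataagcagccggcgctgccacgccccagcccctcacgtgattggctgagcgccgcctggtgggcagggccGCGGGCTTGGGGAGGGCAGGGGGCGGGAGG
Mlec, chr5:115158147-115158266, minus strand: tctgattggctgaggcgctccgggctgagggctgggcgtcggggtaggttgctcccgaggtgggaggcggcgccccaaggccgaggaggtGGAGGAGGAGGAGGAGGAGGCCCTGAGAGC
Tmem178, chr17:80944542-80944661, plus strand: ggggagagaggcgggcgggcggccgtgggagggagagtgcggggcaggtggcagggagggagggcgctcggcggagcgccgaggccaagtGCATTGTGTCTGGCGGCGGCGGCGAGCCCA
Chmp4b, chr2:154656936-154657055, plus strand: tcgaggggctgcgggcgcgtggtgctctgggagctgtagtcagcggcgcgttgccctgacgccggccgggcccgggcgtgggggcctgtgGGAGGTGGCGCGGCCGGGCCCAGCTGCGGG
The summits lay downstream of these windows, at a median over the 6 lists of 224 bp past the listed start for Ctbp1, 116.5 bp for Adam10, 269 bp for Pgrmc2, 185 bp for Mlec, 62 bp for Tmem178 and 190.5 bp for Chmp4b. All 6 windows were rich in G and C, from 69.2% in Adam10 to 80% in Chmp4b, and held 8 (Mlec) to 22 (Ctbp1) CpG dinucleotides. Windows of this length were not measured in other genes. In longer windows, from 250 bases before to 50 after the start, median GC content over all genes of the span limits was 59.3%.

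End summits made up 18.2% of the summits in these gene spans in control 1, 40.5% in control 2, 42.4% in control 3, 33.4% in KO 1, 16.4% in KO 2 and 39.7% in KO 3. Control 1 and KO 2 were the low libraries; of the others, KO 1 was lowest, and both KO libraries were below both controls. Had summits fallen evenly over the spans that were hit, 4.02%, 5.45%, 5.67%, 5.51%, 4.33% and 5.42% would have been within 1000 bp of an end. Every library was above that share, by 3.79 times (KO 2) to 7.48 times (control 3). The excess was 26.7 ± 10.9 percentage points (SD, n = 6; exact two-sided sign-flip permutation test over libraries, p = 0.03125, the smallest that 6 libraries allow; 0.046875 after Benjamini-Hochberg adjustment over 6 such tests). The expected share counts introns and exons alike, since exons were not used here, and what exon position and transcript level contribute was not tested.

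**Figure D1:**
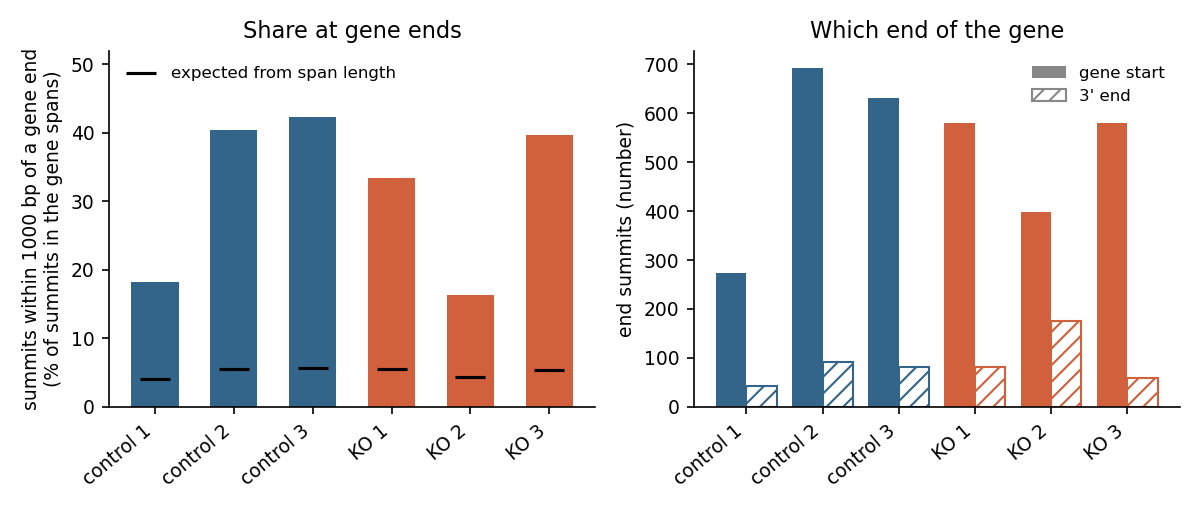
Left, share of summits in the gene spans that lay within 1000 bp of a gene end (bars, %), with the share expected from span length (black marks), for the 3 control (blue) and 3 KO (red) libraries. Right, number of end summits at the gene start (filled) and at the 3′ end (hatched) for genes of known strand; bars are single libraries, start summits outnumber 3′ summits in all 6, and KO 2 has the most 3′ summits, 176.

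The same 2 libraries stood apart in their files. Control 1 had the fewest used pull-down tags, 459332, and its peaks were called with all duplicate tags kept, whereas the others kept at most 1 tag per position and had 864206 to 2508102 used tags, with the maximum in KO 2. In control 1, 72.4% of peaks were exactly as long as the fragment estimate, against 11.8% to 16.05% in the others. KO 2 had 6947 peaks, against 3004 to 3782 in the others. Without control 1 and KO 2 the excess at gene ends was 33.5 percentage points.

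The end share was lower in longer genes, while its ratio to the share expected from their length was higher. In percentage points, the excess was smaller in the longest genes than in the shortest. In genes of 10000 to under 25000 bp, 45.2% ± 7.43 (SD, n = 6) of summits were at an end, 3.58 times the expected 12.6%. The share was 38.9% ± 10.3 for spans of 25000 to under 50000 bp, 30.4% ± 11.3 for 50000 to under 100000 bp and 24.1% ± 12.4 for 100000 to under 200000 bp. In genes of 200000 to under 500000 bp it was 14.7% ± 8.35, which was 22.4 times the expected 0.655%. These shares by length are descriptive and were not tested against each other.

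Gene starts carried most end summits. Among end summits with a known strand, the start held 273 in control 1, 693 in control 2, 632 in control 3, 581 in KO 1, 398 in KO 2 and 580 in KO 3. The 3′ end held 42, 91, 81, 82, 176 and 58, in the same order. The start share was therefore 86.7%, 88.4% and 88.6% in controls and 87.6%, 69.3% and 90.9% in KO libraries, so that KO 2 alone was below 86%. The start share exceeded the 3′ share by 70.5 ± 15.9 percentage points (SD, n = 6; exact two-sided sign-flip permutation test, p = 0.03125, adjusted p = 0.046875), and by 77.8 points without control 1 and KO 2. A further 899 end summits lay in genes of unknown strand and 10 counted for both ends. By gene, 1361 had a start summit, 261 a 3′ summit and 102 both.

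Few start summits lay in the first 100 bp of the gene. The rule keeps only summits inside the span, so summits upstream of the gene start could not be counted. The median distance from the gene start was 263, 281 and 264.5 bp in controls 1 to 3 and 271, 293 and 274 bp in KO 1 to 3, a range of only 30 bp, control 1 and KO 2 included. Between 49.5% and 56.0% of start summits fell 100 to under 300 bp into the gene, and 1.72% to 2.85% fell within the first 100 bp. The 5′ edge of the peak itself was a median of 151, 156 and 143 bp past the gene start in controls 1 to 3 and 167, 181.5 and 168 bp in KO 1 to 3. It reached over the start in 3.66%, 3.90% and 3.96% of start peaks in controls and 2.58%, 2.76% and 3.45% in KO libraries. Neither measure overlapped between genotypes. The fragment length estimated by the authors did not overlap either, at 170, 177 and 170 bp in controls and 163, 166 and 165 bp in KO libraries. Its part in the edge position, and in how few summits lay in the first 100 bp, was not tested. For start summits whose nearest listed RefSeq start lay upstream of them, the median distance from that start was 213 to 235 bp.

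Over the 6 libraries, the count of start summits per 100 bp was 79 in the first 100 bp, 701 in the next, 982 in the third, 478 in the fourth, and then declined to 106 in the tenth. The 100 bp beyond the 1000 bp limit held 59. Counts at the 3′ end were lower, with 3 summits in the last 100 bp of the gene, 69 in the next, at most 86 in any 100 bp of the window and 49 in the tenth from the end. KO 2 supplied 37 of the 69, and it had 120 summits in the last 500 bp of genes against 57 in the 500 bp before. The other libraries divided more evenly, with 17 and 25 in control 1, 44 and 47 in control 2, 44 and 37 in control 3, 34 and 48 in KO 1 and 27 and 31 in KO 3. Median 3′ distances were 612.5, 519 and 458 bp in controls and 582, 361.5 and 530.5 bp in KO libraries. Start summits in the 100 bp just inside the limit (106) had a median fold enrichment of 7.15, and those in the 100 bp just outside (58) had 6.73. At the 3′ end the corresponding medians were 5.80 inside (48 summits) and 6.34 outside (27).

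**Figure D2:**
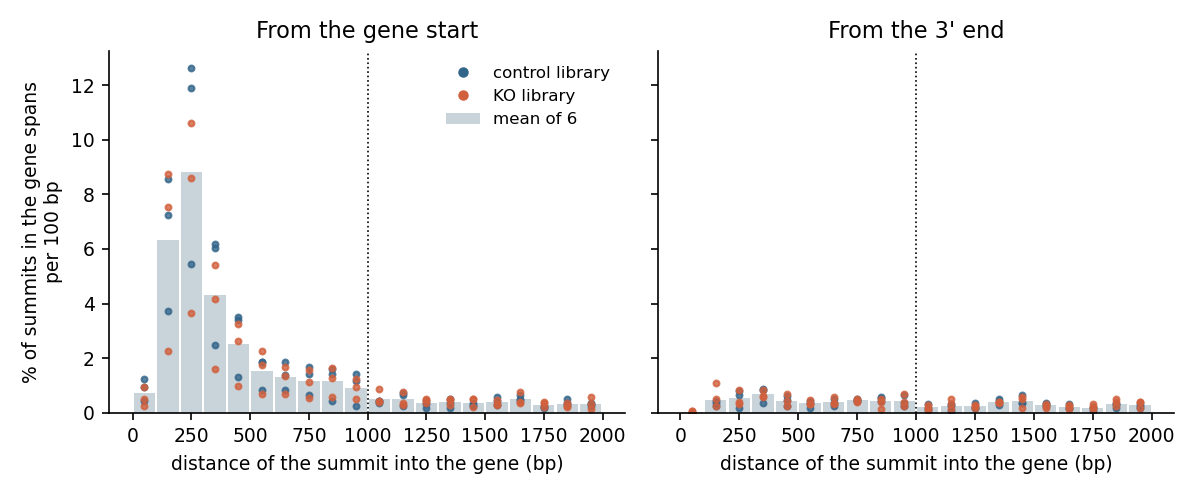
Share of summits in gene spans of known strand (%, per 100 bp) by distance of the summit into the gene from the start (left) and from the 3′ end (right). Points are the 6 libraries, bars their mean, and the dotted line the 1000 bp limit; all libraries are highest from 100 to under 300 bp past the start, and the 3′ profile is lower, with KO 2 highest there from 100 to under 200 bp (1.08%).

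Some interior summits lay at other starts of the same gene. Of 8440 interior summits in genes of known strand, 677 lay 0 to 1000 bp past a start that RefSeq lists for that gene (9.61% ± 5.02 per library, SD, n = 6; 3.22% to 14.4%). Of 3704 end summits in the same genes, 2951 did (79.3% ± 7.73). The outer limits of a span therefore left out a minority of start-linked summits. This comparison follows in part from the rule and was not tested.

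End peaks had a somewhat higher fold over local background than interior peaks of the same genes, but not a uniformly higher pull-down signal. Fold enrichment is the authors' value for the summit, pull-down signal over the local background estimated from the input. In controls 1 to 3 the median was 6.89, 7.43 and 7.59 at ends and 5.23, 6.37 and 6.53 in the interior of genes that held an end summit in that list. In KO 1 to 3 it was 7.52, 6.93 and 7.75 at ends and 6.77, 6.61 and 6.53 in the interior. All 6 differences had the same sign, from 0.07 (KO 2) to 0.40 (control 1) on the log2 scale, with a mean of 0.22 ± 0.11 (SD, n = 6; exact two-sided sign-flip permutation test, p = 0.03125, adjusted p = 0.046875). Against the interior of all genes the difference was 0.15 and no longer passed the threshold (exact sign-flip permutation p = 0.09375). Median pileup, the pull-down signal itself, was 11, 20 and 19 at ends and 7, 24 and 23 in the interior in controls 1 to 3. In KO 1 to 3 it was 18, 22 and 20 at ends and 19, 21.5 and 22 in the interior. Pileup was thus higher at ends in control 1 and KO 2 alone, and was not tested.

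Start peaks were also more enriched than 3′ peaks. Medians at starts were 6.98, 7.58 and 7.70 in controls and 7.74, 7.20 and 7.91 in KO libraries, and at 3′ ends 6.05, 6.47 and 6.60 in controls and 6.18, 5.76 and 5.68 in KO libraries. The log2 difference was 0.30 ± 0.10 (SD, n = 6), positive in 6 of 6 libraries (exact two-sided sign-flip permutation test, p = 0.03125, adjusted p = 0.046875). Among peaks of at least 4-fold enrichment it was 0.16 and the call was lost (exact sign-flip permutation p = 0.09375). The length of end peaks differed from interior peaks of the same genes by -9.5 ± 19.03 bp (exact two-sided sign-flip permutation test, p = 0.3125, adjusted p = 0.3125), with both signs among the libraries.

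A larger share of gene-end regions than of all regions had a peak in every list. Of the 2119 end regions, 115 (5.43%) had a peak in all 6 lists, against a background of 2.95% of all 13137 regions and 2.36% of 2207 interior regions in genes with an end summit. Start regions recurred in all 6 lists in 82 of 1424 cases (5.76%), and 3′ regions in 7 of 286 (2.45%), a share near the background with 6 lists. Regions seen in 1 list only were 1066 (50.3%) at ends, 69.9% in the interior of the same genes and 68.9% over all. A peak counted per library gave a less even picture. The share of end peaks that overlapped a peak of another list was 74.9%, 79.4% and 82.3% in controls and 75.8%, 65.2% and 79.9% in KO libraries. For interior peaks of the same genes it was 52.04%, 81.4% and 87.5%, and 68.8%, 37.7% and 76.9%. The difference of 8.87 ± 13.4 percentage points had both signs and did not pass the test (exact two-sided sign-flip permutation test, p = 0.21875, adjusted p = 0.2625). It was largest in control 1 (22.9 points) and KO 2 (27.5 points), the libraries in which the smallest shares of interior peaks overlapped another list.

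**Figure D3:**
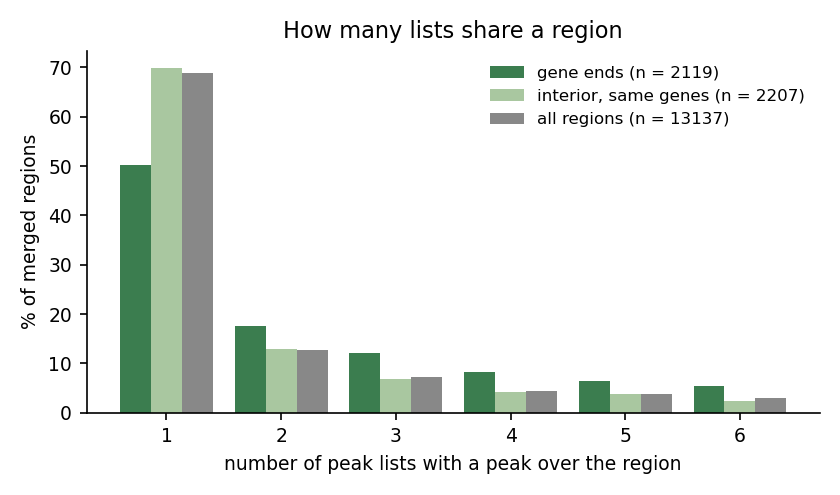
Share of merged regions (%) by the number of peak lists, of 6, that had a peak over the region, for gene-end regions, interior regions of genes with an end summit, and all regions on chromosomes 1 to 19. Gene-end regions have fewer members seen in a single list (50.3%) and more seen in all 6 (5.43%).

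Leaving out 1 library moved the count called in all remaining lists to between 115 and 196, with the highest value without control 1. Without both control 1 and KO 2, 288 of 1761 end regions (16.4%) were called in the 4 lists, against 12.8% of interior regions of genes with an end summit and 14.1% of all regions. Start regions were called in all 4 in 203 of 1263 cases (16.1%) and 3′ regions in 29 of 162 (17.9%), so the order of starts and 3′ ends was the opposite of that with 6 lists.

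Among the regions called in all 6 lists, the start with the highest minimum fold over the 6 lists was that of Ctbp1, a transcriptional corepressor, at chr5:33274632-33274920. Its fold enrichment was 22.2, 19.4 and 22.7 in controls 1 to 3 and 28.1, 25.01 and 24.8 in KO 1 to 3, and the KO values were all above the controls. The start of Adam10 (chr9:70678982-70679372), a membrane metalloprotease that sheds surface proteins, had 16.1, 37.0 and 22.8 in controls and 17.4, 22.3 and 19.5 in KO. The groups overlapped, and control 2 was highest. Pgrmc2 (chr3:41082446-41083004), a haem-binding membrane protein, had 14.7, 32.6 and 23.0 in controls and 13.7, 15.8 and 18.6 in KO. Mlec (chr5:115157760-115158190), a lectin of the endoplasmic reticulum, had 23.5, 27.5 and 21.4 in controls and 14.7, 12.6 and 25.2 in KO. Both overlapped between genotypes.

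Chmp4b, a subunit of the ESCRT-III membrane-scission machinery (chr2:154657050-154657414), ranged most widely, with 22.5, 42.9 and 18.8 in controls and 19.3, 11.05 and 43.6 in KO. Its maximum and minimum were both in KO libraries. Crkl, an adaptor of tyrosine kinase signalling (chr16:17452052-17452649), had 10.4, 10.98 and 10.9 in controls and 18.1, 15.5 and 22.1 in KO, without overlap. The starts of Tmem178, Ube2k (a ubiquitin-conjugating enzyme), Mprip (which binds myosin phosphatase) and Adam22 (a neuronal receptor of LGI1) and the end region of Fam177a2, whose strand was unknown and which has a close relative on the same chromosome, completed the 12 regions of highest minimum enrichment. Reads from near-identical gene copies cannot be told apart by these files.

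**Figure D4:**
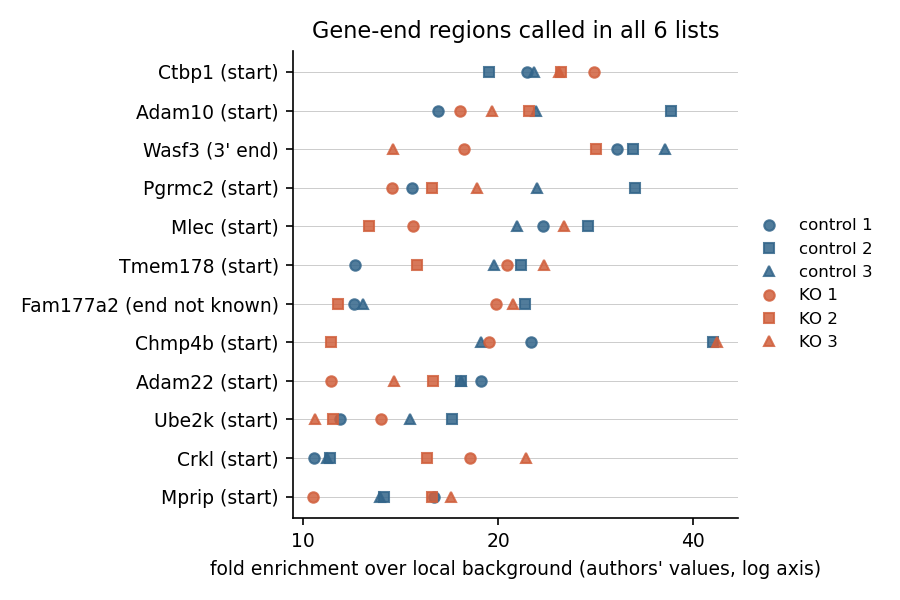
Fold enrichment over local background (authors' values, log axis) of the 12 gene-end regions with the highest minimum over the 6 lists; each point is 1 library, blue for control and red for KO, and shapes mark the replicate number. Genotypes overlap for most regions; Crkl and Ctbp1 have KO values above, and Wasf3 and Adam22 have KO values below, all controls.

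Among 3′ regions called in all 6 lists, the highest minimum fold was that of Wasf3, a WAVE-family regulator of actin branching, at chr5:146472723-146473318, a median of 678.5 bp before the gene's end. Its fold enrichment was 30.5, 32.2 and 36.1 in controls and 17.7, 28.3 and 13.8 in KO, with KO below control throughout. Lrrc4b, a synaptic adhesion protein (chr7:44462629-44463246), had 17.0, 17.4 and 14.7 in controls and 12.7, 8.81 and 8.12 in KO. Camta2, a calmodulin-binding transcription activator (chr11:70669493-70670169), had 16.04, 17.2 and 17.9 in controls and 12.03, 11.05 and 6.31 in KO. In both, KO values again lay below controls. Matk, a kinase that restrains Src-family kinases (chr10:81262466-81262947), had 6.0004, 11.3 and 13.01 in controls and 12.6, 15.6 and 10.7 in KO, with overlap.

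Such ordering was counted over all regions called in every list, the end regions included. Every KO fold was below every control fold in 15 of the 115 end regions called in all 6 lists (13.0%), against a background of 15.8% of 387 regions. Every KO fold was above in 4 (3.48%; Ctbp1, Crkl, Alms1 and Diras2, of which the last pair were named after their values were seen), against a background of 2.84%. Fold values depend on the depth of each pull-down and input, so these counts are given without a test, and both shares were near their background.

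Genotypes did not separate in how many summits lay at gene ends. The end share was 29.8% ± 12.0 in KO and 33.7% ± 13.4 in control (SD, n = 3 each), a difference of -3.88 points (exact two-sided permutation test, p = 0.5; adjusted p = 0.65 over 13 quantities; the smallest p that 3 against 3 allows is 0.1). It changed sign without control 3 (0.462 points) and without KO 2 (2.83 points), was near 0 without control 2 (-0.498 points), and was -11.6 points without control 1, -5.67 without KO 1 and -8.81 without KO 3. Without control 1 and KO 2 it was -4.90 points, with both remaining KO libraries below both remaining controls; the exact permutation p of 0.333 is the smallest that 4 libraries allow. The start share was 82.6% ± 11.6 in KO and 87.9% ± 1.07 in controls (exact permutation p = 0.8, adjusted p = 0.945455), and this difference of -5.27 points became 1.37 without KO 2. Start summits numbered 520 ± 105 in KO and 533 ± 227 in control libraries (exact permutation p = 1), and 3′ summits 105 ± 62.4 and 71.3 ± 25.9 (exact two-sided permutation p = 0.5). Median start distances were 279 ± 11.9 bp in KO and 269.5 ± 9.99 bp in controls (exact permutation p = 0.4). Of the 13 quantities, 3 separated the libraries completely. The log2 enrichment of start over 3′ peaks was 0.38 ± 0.09 in KO and 0.22 ± 0.01 in control (exact two-sided permutation test, p = 0.1, adjusted p = 0.433333). The 5′ edge of start peaks was 172 ± 8.10 bp into the gene in KO and 150 ± 6.56 bp in control, and it reached over the start in 2.93% ± 0.457 and 3.84% ± 0.155 of start peaks (exact two-sided permutation test, p = 0.1, adjusted p = 0.433333 for each). Both edge measures were added after their values were seen, and none of the 3 passed the threshold.

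Among end regions called in a single genotype, 30 of 2119 (1.42%) were called in all 3 control lists and no KO list, and 19 (0.897%) in all 3 KO lists and no control list. Over all 13137 regions the order was the opposite, with a background of 0.807% for control-only and 1.45% for KO-only regions. At starts there were 22 control-only and 9 KO-only regions, and at 3′ ends 5 and 2. A further 3 control-only and 8 KO-only regions lay in genes of unknown strand. Their end could not be assigned, so the counts at starts are incomplete, more so for KO-only regions. Interior regions of genes with an end summit had 16 control-only and 32 KO-only regions of 2207. The libraries that stood apart weigh on these counts: leaving out 1 library gave 37 to 120 control-only regions, with 120 without control 1 and 46 without KO 3, and 23 to 79 KO-only regions, with 79 without KO 2, 43 without KO 3, 35 without KO 1, 30 without control 2 and 29 without control 3. With 1 list fewer, a region needs a peak in, or absence from, fewer lists to be counted.

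With control 1 and KO 2 both left out, 150 of 1761 end regions (8.52%) were called in both controls and neither KO, against a background of 8.1%, and 84 (4.77%) in both KO and neither control, against a background of 7.27%. In interior regions of genes with an end summit the counts were 88 and 64 of 1003. With 4 lists the control-only share of end regions was thus near its background, and the KO-only share below it. The counts carry no test. A region missing from a list is one that was not called at that depth, which does not show that the RNA was unmodified.

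**Figure D5:**
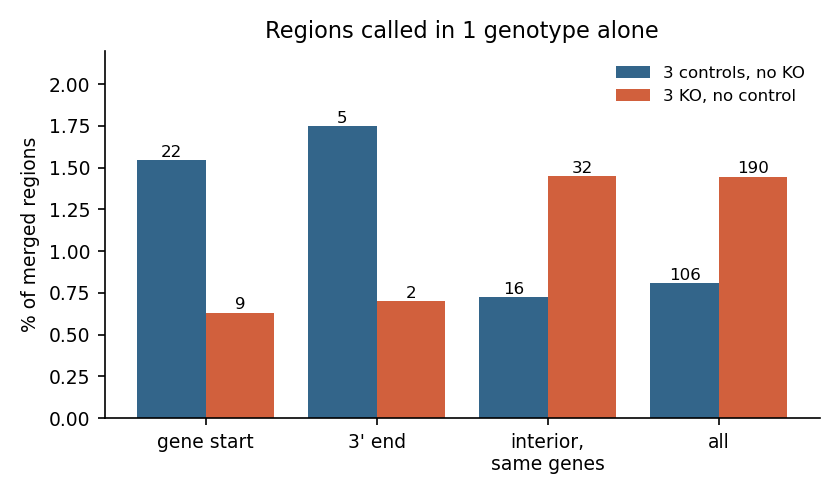
Share of merged regions (%) called in all 3 lists of 1 genotype and in none of the other, with the number of regions above each bar, for gene starts, 3′ ends, interior regions of genes with an end summit, and all regions. Control-only regions outnumber KO-only regions at starts (22 and 9) and KO-only regions outnumber control-only regions over all (190 and 106). End regions of unknown strand (3 control-only and 8 KO-only) are in neither the start nor the 3′ bars.

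The printed starts below are 3 genes whose start region was called in KO lists only (Crtc1, Mmaa and Abcf2) and 3 called in control lists only (Ncdn, Wasl and Nup62), each set the highest in minimum fold among start regions; the layout is as above, with transcribed bases in capitals.
Crtc1, chr8:70439544-70439663, minus strand: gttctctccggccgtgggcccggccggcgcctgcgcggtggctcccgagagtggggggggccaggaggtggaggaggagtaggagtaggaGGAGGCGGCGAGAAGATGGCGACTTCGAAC
Mmaa, chr8:79294932-79295051, minus strand: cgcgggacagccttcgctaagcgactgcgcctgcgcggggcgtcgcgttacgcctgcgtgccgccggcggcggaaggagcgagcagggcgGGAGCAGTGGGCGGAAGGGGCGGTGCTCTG
Abcf2, chr5:24577317-24577436, minus strand: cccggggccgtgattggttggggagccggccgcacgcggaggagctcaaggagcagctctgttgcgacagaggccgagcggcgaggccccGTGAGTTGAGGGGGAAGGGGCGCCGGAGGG
Ncdn, chr4:126753400-126753519, minus strand: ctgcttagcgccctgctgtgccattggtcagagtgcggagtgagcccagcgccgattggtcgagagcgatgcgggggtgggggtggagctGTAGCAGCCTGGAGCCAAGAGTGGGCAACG
Wasl, chr6:24664966-24665085, minus strand: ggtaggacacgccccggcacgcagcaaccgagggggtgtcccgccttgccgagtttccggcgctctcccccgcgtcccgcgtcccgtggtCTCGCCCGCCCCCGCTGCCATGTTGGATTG
Nup62, chr7:44815998-44816117, plus strand: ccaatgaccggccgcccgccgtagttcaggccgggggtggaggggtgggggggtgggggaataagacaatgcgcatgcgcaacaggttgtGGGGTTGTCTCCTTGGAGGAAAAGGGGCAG
GC content of these windows was 71.7% to 75.8% in the KO-only set and 65% to 73.3% in the control-only set, ranges that overlap.

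The KO-only region of highest minimum enrichment lay in Clasp1, which stabilises microtubule plus ends (chr1:118389490-118389857, strand unknown), with 10.7, 10.0 and 10.7 in KO 1 to 3. Crtc1, a coactivator of CREB (chr8:70439226-70439566), had 10.2, 9.91 and 9.64. Idh3a, a subunit of the mitochondrial isocitrate dehydrogenase of the citric acid cycle (chr9:54586524-54586736, strand unknown), had 14.1, 8.89 and 13.3. Mmaa, which serves mitochondrial cobalamin use, Abcf2, an ATP-binding cassette protein, Ulk1, a kinase that starts autophagy, and Azin2, an antizyme inhibitor (strand unknown), followed. In these 7 regions KO values ran from 7.04 (Azin2 in KO 2) to 14.7 (Ulk1 in KO 3), beside a median of 6.93 to 7.75 over all end peaks of these 3 lists. The regions were picked by their lowest fold, so their height beside that median follows in part from the ranking. Over all 19 KO-only regions the lowest value was 3.15 (BC005537 in KO 2).

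The control-only region of highest minimum enrichment was a 3′ region of Laptm5, a lysosomal protein of immune cells (chr4:130935144-130935377), with 10.3, 11.003 and 16.7 in controls 1 to 3. Microglia share that expression: of 6 microglial markers, 2 had a peak anywhere in the lists (0 to 2 per library), and Csf1r, P2ry12, Tmem119 and Aif1 had none; the part of cell makeup in this region was not tested. Ncdn, a neuronal cytoplasmic protein (chr4:126753135-126753374), had 8.54, 9.13 and 9.19. Wasl, which activates the Arp2/3 complex (chr6:24664662-24664900), had 11.4, 8.27 and 8.57. Lars2, the mitochondrial leucyl-tRNA synthetase, had a 3′ region (chr9:123461827-123462291) at 60.6 in control 1 and 8.32 and 7.79 in controls 2 and 3, so that control 1, the library with duplicates kept, set its mean. Chd3 (a chromatin remodeller), Nup62 (a nucleoporin), Nlgn2 (an adhesion protein of inhibitory synapses) and Vdac1 (the main channel of the outer mitochondrial membrane) made up the rest, with values from 7.65 (Vdac1 in control 1) to 13.8 (Vdac1 in control 2). Chd3, whose strand was unknown, also had a separate end region called in 5 lists of both genotypes.

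No list held a Tet1 peak, so the knockout could not be checked from these files. Of 13 genes for DNA methylation and its removal that met the span limits, 1 had an end region (Mbd1, in 3 lists). Of 10 genes of the m1A machinery, 2 had one: Fto, a demethylase of RNA, in 1 list, and Ythdf3, a reader protein, in 2. Both shares stood beside 14.6% (1912 of 13107) for all genes of the span limits. The transfer RNA methyltransferase gene Trmt5, which acts on guanine and not on adenine, had a KO-only start region and was named after its values were seen.

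Over all genes within the span limits, 14.6% had an end region, and of the 4509 such genes with a summit anywhere in their span 42.4% (1912) did. The list for the glutamatergic postsynapse also held Nlgn2, an adhesion protein of inhibitory synapses. Of its 22 genes within the span limits, 19 had a summit and 13 had an end region, Nlgn2 among them. Homer1, a scaffold of metabotropic receptors, had 2 start regions. The region centred a median of 577.5 bp into the gene (chr13:93304073-93304707) was called in all 6 lists, at 8.80, 14.7 and 14.8 in controls and 7.97, 3.71 and 11.9 in KO, with overlap. The region at a median of 143 bp (chr13:93303785-93303992) was called in 5, missing in control 1. Camk2b, the beta chain of a kinase that responds to calcium in synapses, had a 3′ region in all 6 lists (chr11:5970286-5970752), at 10.6, 8.61 and 10.7 in controls and 8.74, 4.00 and 6.72 in KO, with overlap. Its partner Camk2a also had an end region in all 6 lists, at 5.95, 7.70 and 10.7 in controls and 8.56, 4.13 and 12.8 in KO. Dlgap3, a scaffold of striatal synapses, had a 3′ region in 4 lists and Dlg1 a start region in 4.

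Presynaptic genes had an end region in 10 of 18 genes, 15 of them with a summit. The start of Cplx1, a complexin that clamps vesicle fusion, was called in 5 lists, at 10.1, 8.76 and 15.4 in controls and 6.16 and 8.18 in KO 2 and KO 3; its relative Cplx2 had a 3′ region in 5 lists instead, at 4.08 to 5.18. The start of Ppfia3, a liprin of the active zone, was called in 4. Cytoskeletal genes had 9 of 21 (20 with a summit), a share of the genes with a summit near that over all, among them the starts of Sptan1, Map1b and Kif5c, each in 5 lists. Chromatin regulators had 9 of 23 (22 with a summit), likewise near it, led by the start of the remodeller Chd4 in all 6 lists (chr6:125096057-125096423), at 21.7, 10.6 and 7.35 in controls and 9.02, 4.70 and 5.13 in KO, with overlap. The starts of Chd5 and Kmt2a were each called in 4.

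Genes of mTORC1 signalling and autophagy had 7 of 12 (9 with a summit), with the start of Rheb, the GTPase that activates mTORC1, in 5 lists. Oxidative phosphorylation had 5 of 12 (6 with a summit), chaperones 5 of 12 (9), translation factors 5 of 13 (9), striatal projection neuron genes 4 of 14 (12) and immediate early genes 1 of 5 (2), which was Homer1. The start of Eif3b, a translation initiation factor, the start of the chaperone Hsph1 and the start of Gng7, a G-protein subunit of striatal neurons, were each called in 4 lists. A peak needs transcript to be seen, and transcript levels were not used here, so the part of expression in these shares was not tested. Of 15 markers of medium spiny neurons, the main striatal cell type, 12 had a peak somewhere in the lists (4 to 10 per library), while Drd1, Tac1 and Pdyn had none. Peaks were also seen in 6 of 7 oligodendrocyte markers, 4 of 7 astrocyte markers, 4 of 5 markers of cortical excitatory neurons and 2 of 5 interneuron markers, as well as 2 of 4 endothelial and 1 of 3 choroid plexus markers. Among markers within the span limits, end regions were in 2 of 9 for medium spiny neurons, 3 of 5 for oligodendrocytes and 2 of 5 for astrocytes. They were in 1 of 3 each for cortical excitatory neurons, microglia, endothelium and choroid plexus, and 0 of 3 for interneurons. The cortical marker was Slc17a7, with a start region in all 6 lists, and was named after its values were seen.

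Promoters of genes with a start summit were rich in G, C and CpG. In RefSeq windows from 250 bases before to 50 after the start, the median GC content was 65.3% and the median number of CpG 26 for 1361 genes with a start summit, and the same for the 81 with a start region in all 6 lists. Genes with a 3′ summit and no start summit (159) had 62.0% and 21, genes with interior summits alone (2061 with a window) 62.3% and 22, and genes with no summit (6799) 57.0% and 14. The GC box GGGCGG, on either strand, was in 74.7% of windows of start-summit genes, 67.9% of those with a start region in all 6 lists, 64.8% of interior-only genes and 55.9% of all 10380 windows. The TATA sequence TATAAA was in 4.78% for start-summit genes, 6.26% for interior-only genes and 8.63% of all. GTTCNA, the core of the T-loop in tRNA that is methylated at adenine, was in 21.5%, 22.95% and 26.5%, in the same order. CGGAAG, the core of ETS sites, was in 29.7%, 27.4% and 25.04%, and in 29.6% of genes with a 3′ summit and no start summit. TGCGCA, part of the NRF1 site, was in 17.6%, 12.1% and 11.8%. These are matches of letters on both strands, 3 of the motifs are themselves rich in G and C, and base composition was not matched between the gene sets. The windows stop 50 bases past the start, whereas the median start summit lay 263 to 293 bp past the gene start. These values therefore describe sequence mostly upstream of the peaks, and do not show whether a motif such as GTTCNA lies under them.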

How the data were processed

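Total RNA of the caudate putamen was pulled down with an m1A antibody in 6 libraries and compared with 6 inputs. Reads were processed with cutadapt 2.8, HISAT2 2.1.0 and MACS2 2.2.6 on GRCm38, per the submitters' processing notes. The 6 peak lists were deposited with a pileup signal, −log10 p and q values and a fold ratio over local background for each peak, per the file headers. The headers give a q limit of 0.01, an extension of 150 bp and scaling of the larger library to the smaller; control 1 kept all duplicates and the others at most 1 tag per position. Here Python 3.11.15, pandas 2.3.3 and NumPy 2.4.6 placed each summit in RefSeq gene spans (GRCm38.p6). The expected share was the mean, over summits, of about 2000 bp divided by the span that held the summit. A gene with more summits thus weighed more. A region counted as called in a list that had any peak over it. Libraries were compared with exact two-sided sign-flip or permutation tests, for which fold enrichment and peak length were first compared within lists. Fold values of single regions were also set side by side across lists, without a test. The counts of regions with every KO fold above or below every control fold rest on such values. Simulated summits served to check that known end and start shares were recovered. The tests themselves were checked on fixed sets of numbers only. The members, gene lists and tests were chosen with earlier results of these data known. Named regions were the first 12 called in all 6 lists by lowest fold, the first 8 of each single-genotype kind, the first 4 start and first 4 3′ regions called in all 6 lists, and list members called in at least 4 lists; some of these are not reported here. Chromosome X, other gene types and unplaced summits were left out of the main counts.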

Additional observations from a re-analysis of the deposited data

Results flagged for a closer look

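Summits near gene ends were also present in spans that the comparisons above leave out, in each case at a mean share above that expected from span length. These shares were not tested. On chromosome X, 91 of 338 summits in protein-coding spans of the same length limits were within 1000 bp of an end (28.6% ± 11.04 per library, SD, n = 6; 6.21% expected from span length), with 48 at starts and 20 at 3′ ends among those of known strand. In protein-coding spans of 500000 bp and over, 111 of 1927 summits were at an end (9.66% ± 6.30; 0.245% expected), with 99 at starts and 1 at a 3′ end. In long non-coding RNA genes, 195 of 1106 were (19.6% ± 5.01; 7.07% expected), with 138 at starts and 19 at 3′ ends.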

How the results depend on the processing

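Of 176 alternative values, 126 kept both direction and side of the threshold or, for counts, stayed within 1.5 times, 34 lost the threshold, 12 counts moved by over 1.5 times and 4 changed sign. The KO minus control end share and start share each gave 14 of the 126. Their p cannot fall below 0.1, so they could only keep or change sign. The same holds for length and repeat calling with 5 or 4 libraries. The count of 126 is therefore no measure of how robust the results are. The excess at gene ends was 24.7 to 29.6 points with each library left out and 33.5 without control 1 and KO 2; the start share minus the 3′ share was 68.3 to 76.9 and 77.8. Enrichment of end over interior peaks was 0.18 to 0.25 (log2) with each library left out, 0.21 without control 1 and KO 2, 0.17 with a window of 2000 bp (p = 0.0625), 0.20 with lists of equal length (the top 2918 peaks, p = 0.0625) and 0.15 against the interior of all genes (p = 0.09375; exact sign-flip permutation tests). Enrichment of start over 3′ peaks was 0.26 to 0.32 and 0.31, and 0.20 for spans of at least 20000 bp (p = 0.0625), 0.21 for −log10 q of at least 5 (p = 0.0625) and 0.16 for fold of at least 4 (p = 0.09375; exact sign-flip permutation tests). With 5 libraries the smallest p is 0.0625 and with 4 it is 0.125, so these tests lost the threshold by having fewer samples; the cause was not tested for the others. End minus interior length was -14.4 to -4 bp and repeat calling 6.001 to 11.7 points with each library left out. The KO minus control end share was -11.6 to 2.83 points, with a change of sign without control 3 (0.462) and without KO 2 (2.83); the start share was -9.41 to 1.37, with a change of sign without KO 2 (1.37) and without control 1 and KO 2 (0.754). Regions called in all lists were 115 to 196, KO-only 23 to 79 and control-only 37 to 120 with each library left out, and 288, 84 and 150 without control 1 and KO 2, where fewer lists have to hold a peak. KO-only regions were 10, beside 34 control-only, with lists of equal length.

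Same-numbered control and KO libraries had correlated deviations of only 0.0194, 0.0412 and 0.0367 over 387 regions, so the numbers were not taken as pairing. With the replicate block the end share difference was -3.88 points (exact permutation p = 0.75) and the start share difference -5.27 (exact permutation p = 1), where 3 pairs allow a smallest p of 0.25. Depth limits what a missing peak shows, most in control 1 with 459332 used tags.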
